A study of Mus musculus with 7 samples.

Results

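The genes described here encode the proteins that sense unfolded protein in the endoplasmic reticulum (ER) and the membrane-bound transcription factors of that organelle, with the proteases that release them. They were taken by symbol and not by a cutoff on their values, though with earlier results of these data known. They are Ern1, Eif2ak3, Atf6, Xbp1, Atf6b, Mbtps1, Mbtps2, Creb3, Creb3l1 and Creb3l2, which are 10 of the 49382 genes in the table. All 10 were among the 12909 genes that reached 2 TPM on average, where TPM is a transcript's share of its library after division by length. In mouse embryonic fibroblasts (MEFs) given thapsigargin, 6 of the 10 rose by more than 2-fold over the control and none fell. Of all 12909 genes, 8.60% rose and 11.0% fell there. The 6 were Atf6, Ern1, Xbp1, Mbtps2, Creb3l2 and Eif2ak3. The last 3 were near the threshold, and under it with 5 TPM added in place of 1. In cells given extra salt, Xbp1 fell, which is 1 of 10 against 8.76% of all genes. In the other 4 conditions no member passed 2-fold in either direction.

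The part of the study used here asked how fibroblasts change their expression of growth factors when their surroundings become harsh. RNA-seq was performed on 7 libraries of wild type primary MEFs, which are adherent cells grown from mid-gestation embryos after removal of the head and red tissue. After overnight culture, 1 culture was left as the control and 6 were stressed: no glucose for 10 h, no glutamine for 10 h, oxygen at 0.1% for 10 h (hypoxia), 1 µM thapsigargin for 10 h (ER stress), 10 µM NaAsO2 for 3 h (oxidative stress) and 100 mM NaCl for 3 h (osmotic stress). Thapsigargin blocks the pump that fills the ER with calcium, and NaAsO2 is sodium arsenite, a thiol-reactive oxidative stressor. Each condition has 1 library, so there is no replicate spread, no difference was tested, and "rose" and "fell" mean only that a value passed 2-fold. The labels do not say how long the control was kept, so the 3 h and 10 h treatments are set against the same library, and the 6 comparisons share its error. TPM is a share of a library and keeps no read count, so the depth is unknown, and in bulk RNA fewer cells with a transcript and less of it per cell cannot be told apart.

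The unfolded protein response has 3 sensors in the ER membrane. IRE1α is a kinase and endonuclease that removes a short intron from Xbp1 mRNA in the cytosol and also cuts other mRNAs at the ER, PERK is a kinase that phosphorylates eIF2α and so favors translation of ATF4, and ATF6α is a transcription factor tethered to the membrane. When unfolded protein accumulates, ATF6α moves to the Golgi, where site-1 protease cuts it in the lumen and site-2 protease then cuts it within the membrane. ATF6β and the CREB3 family are released by the same proteases, which also release the SREBP factors of sterol synthesis. Fibroblasts secrete large amounts of collagen and rely on this machinery. Activation of the sensors is a matter of phosphorylation, splicing and cleavage, and none of these was measured by the values described here, which are mRNA levels summed per gene.

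IRE1α cuts Xbp1 mRNA at a pair of stem-loops. Xbp1 lies at chr11:5520659-5525893 on the plus strand (GRCm38, GENCODE M21). In transcript Xbp1-201 of that annotation, which has 2129 bases and 5 exons, the loop motif CNGCNGC (plus strand of the transcript, N is any base) occurred 8 times, and 1 pair of copies, CCGCAGC and CTGCAGC, lay 26 bases apart. The bases between the cuts are at chr11:5524279-5524304, inside exon 4. They are shown because they carry the step by which the sensor makes the active factor, with the 26 removed bases in capitals and 30 bases on each side. Their removal changed the reading frame from 267 codons to 371.
Xbp1 unspliced: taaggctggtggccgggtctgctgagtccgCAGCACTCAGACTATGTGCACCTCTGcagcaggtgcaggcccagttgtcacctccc
Xbp1 spliced: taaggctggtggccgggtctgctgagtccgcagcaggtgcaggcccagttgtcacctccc
None of the introns in the 4 annotated Xbp1 transcripts is this one, since the shortest has 300 bases. The TPM of Xbp1 therefore counts unspliced and spliced mRNA together, and the share that was spliced was not analysed here.

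Ern1, which encodes IRE1α, was the least abundant of the 3 sensors in the control. It was at 6.33 TPM in control, 7.15 without glucose, 12.1 without glutamine, 6.02 in hypoxia, 21.4 in ER stress, 11.2 in oxidative stress and 5.03 in osmotic stress. ER stress stood above the rest, 1.77-fold over the next library, which was glutamine depletion. The log2 change in ER stress was 1.61 (3.39-fold on the TPM scale), rank 430 from the top of the 12909 genes. Glutamine depletion and oxidative stress came next, with log2 changes of 0.84 and 0.74, inside 2-fold. Its relative Ern2, the IRE1 of mucosal epithelia, was listed at 0 in all 7 libraries.

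Eif2ak3 encodes PERK. Its TPM was 23.0 in control, 22.4 without glucose, 14.0 without glutamine, 25.4 in hypoxia, 47.9 in ER stress, 29.6 in oxidative stress and 40.8 in osmotic stress. The log2 change in ER stress was 1.03 (2.08-fold in TPM), just past the threshold, and osmotic stress was just short of it at 0.80, so the highest library exceeded the second by only 1.18-fold. Without glutamine it was lowest, at a log2 change of −0.68. Of the 6 rises in ER stress this was the nearest to the threshold, and it was under 2-fold when 5 TPM were added in place of 1 (0.92) or when the median of the other 6 libraries replaced the control (0.96).

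PERK is one member of the group of kinases that phosphorylate eIF2α, with HRI (Eif2ak1), PKR (Eif2ak2) and GCN2 (Eif2ak4). In control, Eif2ak3 made up 28.1% of the TPM of these 4 genes, close to Eif2ak1 at 29.1% and Eif2ak2 at 28.0%. The share of Eif2ak3 was 49.2% in ER stress and 44.3% in osmotic stress, the highest values, and 20.0% without glutamine, the lowest. Eif2ak2 fell in ER stress (log2 change −1.04) to 11.0% of the group. Eif2ak1 and Eif2ak4 stayed within 2-fold there, at 0.29 and −0.33.

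Atf6, the gene of ATF6α, had the largest change of any member in any condition. It was at 19.5 TPM in control, 23.5 without glucose, 26.5 without glutamine, 17.9 in hypoxia, 91.2 in ER stress, 21.6 in oxidative stress and 26.4 in osmotic stress. The ER stress library was 3.44-fold above the next, and the other 6 lay between 17.9 and 26.5 TPM. The log2 change was 2.17 (4.67-fold in TPM), rank 286 from the top of 12909. Atf6 and Ern1 were the members that also passed 3-fold.

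Atf6b, a weaker paralog that competes with ATF6α for the same DNA elements, did not follow it. It had 66.3 TPM in control, 47.1 without glucose, 40.8 without glutamine, 47.2 in hypoxia, 65.6 in ER stress, 47.5 in oxidative stress and 48.5 in osmotic stress. Control and ER stress were nearly equal, 1.01-fold apart, and the other 5 libraries lay below them, at log2 changes of −0.69 to −0.44, all inside 2-fold. Within a library the ratio of Atf6 to Atf6b TPM does not depend on the library's total. This ratio was 0.294 in control, 0.380 to 0.650 in the 5 other stresses and 1.39 in ER stress, the one condition in which Atf6 was the more abundant, 4.72-fold above the ratio in control.

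Xbp1, whose spliced product drives genes of ER translocation, folding and degradation, passed 2-fold in both directions. It was at 106 TPM in control, 120 without glucose, 101 without glutamine, 116 in hypoxia, 239 in ER stress, 92.7 in oxidative stress and 43.7 in osmotic stress. ER stress lay 1.99-fold above the next library and osmotic stress lay well below all others, while the remaining 5 spanned 92.7 to 120 TPM. The log2 change was 1.17 in ER stress (2.26-fold, rank 798 from the top) and −1.26 in osmotic stress (0.413-fold, rank 713 from the bottom). The median gene was at −0.12 in osmotic stress, and relative to that median Xbp1 was at −1.13. The highest library was 5.47-fold above the lowest, the widest span of the 10.

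**Figure D1:**
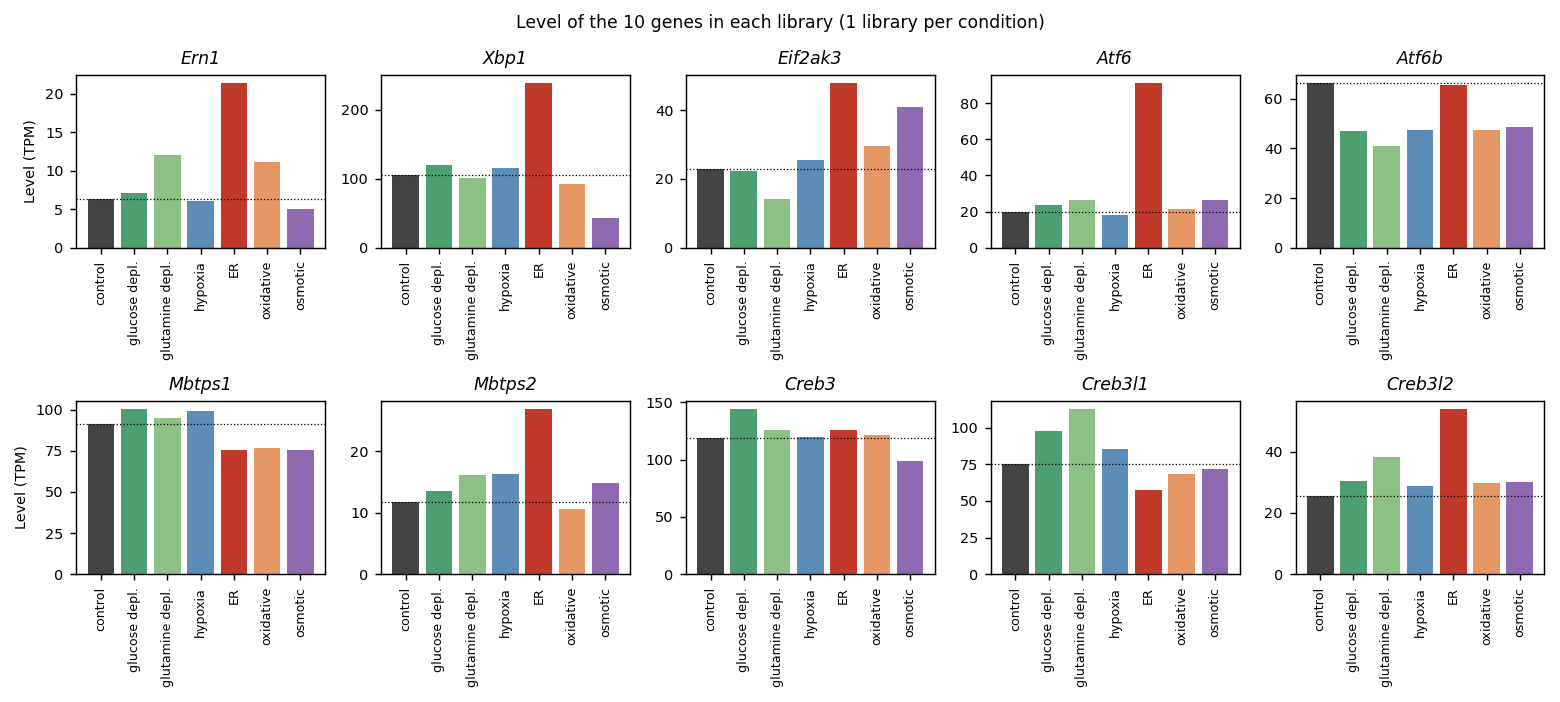
Level in TPM of each of the 10 genes in the 7 libraries (1 bar per library, a panel with its own axis from 0 for each gene, dotted line at the control). ER stress is the highest library for 6 genes, most separated for Atf6 (91.2 TPM against 17.9 to 26.5 elsewhere), and osmotic stress is the lowest for Xbp1 (43.7 TPM).

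Mbtps1 and Mbtps2 encode the site-1 and site-2 proteases, which act one after the other on the same substrates, and their mRNAs changed unequally. Mbtps2 was at 11.8 TPM in control, 13.5 without glucose, 16.1 without glutamine, 16.3 in hypoxia, 26.9 in ER stress, 10.6 in oxidative stress and 14.9 in osmotic stress. Its log2 change in ER stress was 1.13 (2.29-fold), rank 881 from the top, and that library lay 1.66-fold over the next. Mbtps1 was at 91.1 TPM in control, 100.4 without glucose, 95.2 without glutamine, 99.4 in hypoxia, 75.4 in ER stress, 76.8 in oxidative stress and 75.7 in osmotic stress. Its libraries formed 2 close sets, 91.1 to 100.4 and 75.4 to 76.8 TPM, with log2 changes from −0.27 to 0.14, the narrowest span of the 10 genes at 1.33-fold. Mbtps1 was the more abundant in every library, with a Mbtps2 to Mbtps1 ratio of 0.129 in control, 0.135 to 0.197 in the 5 other stresses and 0.357 in ER stress. The rise of Mbtps2 was lost in the same alternatives as that of Eif2ak3, at 0.93 with 5 TPM added and 0.87 against the median of the other libraries.

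The CREB3 family are ER-resident factors of the same build as ATF6, linked in the literature to secretion and matrix synthesis. Creb3 (LUMAN) had 119 TPM in control, 144 without glucose, 126 without glutamine, 120 in hypoxia, 126 in ER stress, 121 in oxidative stress and 98.9 in osmotic stress. It was the most abundant of the 10 genes in the control, and its log2 changes of −0.26 to 0.28 did not pass 2-fold anywhere. Creb3l1 (OASIS), a factor of bone collagen synthesis, had 75.4 TPM in control, 97.7 without glucose, 113 without glutamine, 85.6 in hypoxia, 57.5 in ER stress, 68.6 in oxidative stress and 72.0 in osmotic stress. It was lowest in ER stress (log2 change −0.39) and highest without glutamine (0.57), in each case inside 2-fold.

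Creb3l2 (BBF2H7), which drives COPII coat genes in cartilage, had 25.4 TPM in control, 30.5 without glucose, 38.3 without glutamine, 28.6 in hypoxia, 53.9 in ER stress, 29.8 in oxidative stress and 30.1 in osmotic stress. The log2 change in ER stress was 1.06 (2.12-fold, rank 998 from the top), again near the threshold, and it came to 0.95 with 5 TPM added and 0.83 against the median of the other libraries. Creb3l2 and Creb3l1 stood at a ratio of 0.337 in control and 0.312 to 0.434 in the 5 other stresses, and at 0.937 in ER stress. Against Creb3, Creb3l2 stood at 0.214 in control and 0.428 in ER stress. The family total was 222 TPM in control and 239.5 in ER stress, and within it Creb3l2 went from 11.4% to 22.5% while Creb3l1 went from 33.9% to 24.0% and Creb3 from 53.4% to 52.5%. The relatives Creb3l4 and Creb3l3 held 1.06% and 0.106% of the family in control and were under the expression minimum.

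**Figure D2:**
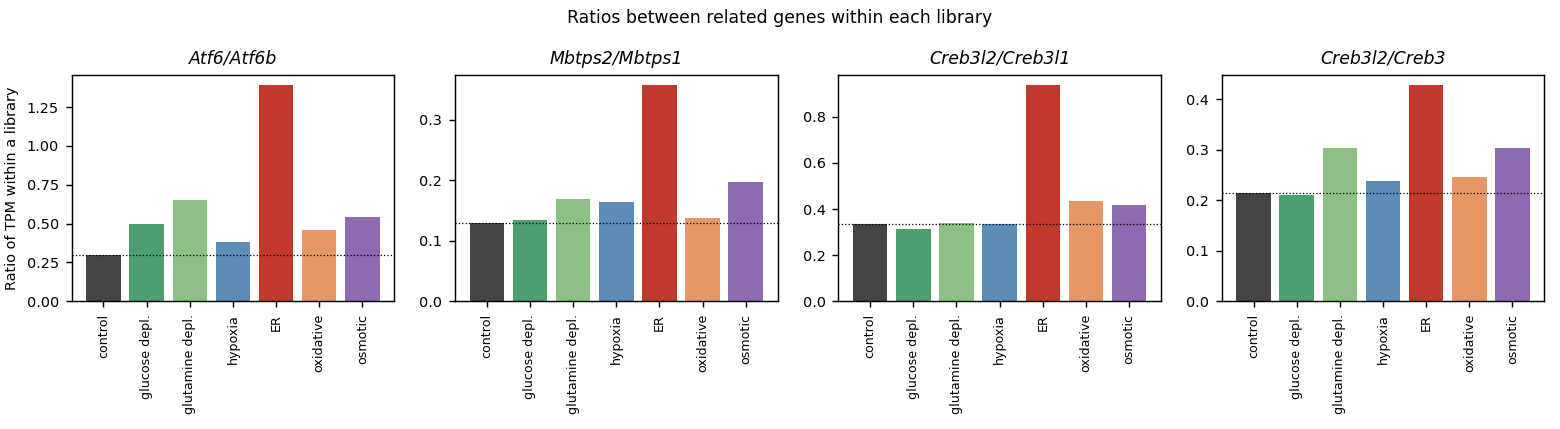
Ratio of TPM within each library for 4 pairs of related genes (1 bar per library, axes from 0, dotted line at the control). In ER stress the ratio of Atf6 to Atf6b is 1.39 against 0.294 in control, that of Mbtps2 to Mbtps1 0.357 against 0.129, and that of Creb3l2 to Creb3l1 0.937 against 0.337.

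Set against all genes, the members that rose in ER stress exceeded the background share. There, 6 of the 10 rose against 8.60% of the 12909 genes, and 0 fell against 11.0%. The members were chosen with earlier results of these data known, so these counts are not independent support. The median log2 change of the members was 1.04 and that of all genes 0. Among the 7545 genes with a mean level within that of the members (9.89 to 122 TPM), a comparison chosen after seeing the data, 7.86% rose. ER stress was the highest library for the same 6 members, and for 33.2% of all genes.

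In osmotic stress, 1 of 10 fell (Xbp1) against 8.76% of all genes, and 0 rose against 3.08%, so the count of members was near the background. Their median was −0.16 and that of all genes −0.12. The remaining conditions had 0 members past 2-fold, where the background was low. In glucose depletion 1.83% of all genes rose and 2.41% fell, and in glutamine depletion 3.21% rose and 3.21% fell. In hypoxia 3.57% rose and 2.64% fell, and in oxidative stress 3.94% rose and 4.85% fell. The member furthest from the control in glucose depletion and in hypoxia was Atf6b, at 0.710-fold and 0.712-fold of its control TPM.

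**Figure D3:**
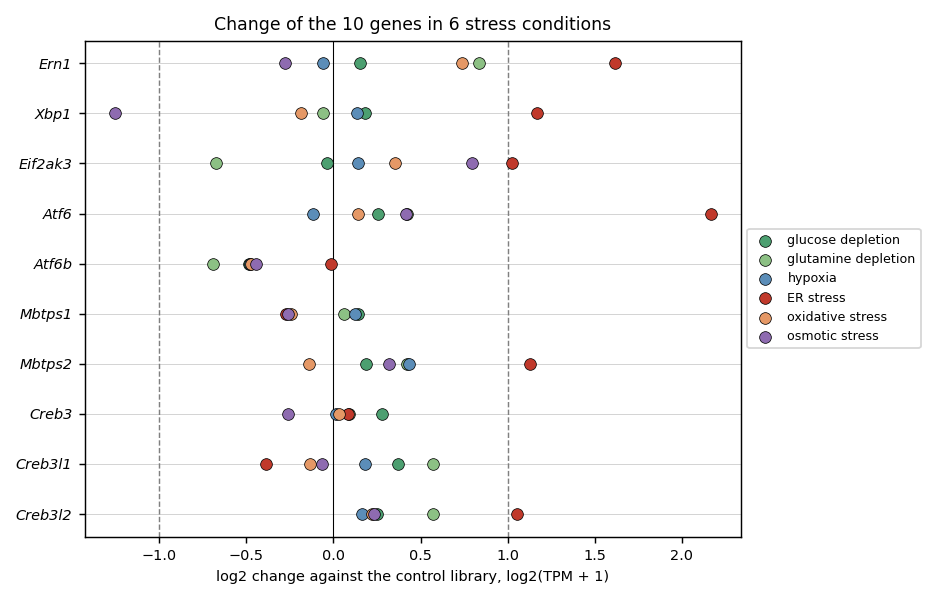
Log2 change of each gene against the control as log2(TPM + 1), with 1 point for each of the 6 conditions and dashed lines at 2-fold. In ER stress 6 genes lie above the upper limit, from Eif2ak3 at 1.03 to Atf6 at 2.17, and in osmotic stress Xbp1 lies below the lower limit at −1.26.

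The known targets of each arm were read from lists in which a gene may appear more than once. The lists were chosen with earlier results of these data known, so their counts are not independent support. The shares of all genes past 2-fold, given above, are the background for these counts. In ER stress, 12 of 12 ATF6 targets rose, against 8.60% of all genes, with a median log2 change of 2.81. The largest were Sdf2l1 (4.22), Herpud1 (4.04) and Creld2 (3.71), which serve folding and degradation in the ER. Of the XBP1 targets 8 of 12 rose, with a median of 1.22. Dnajb9, a co-chaperone that restrains IRE1α, was at 3.98, Dnajc3, an inhibitor of PERK, at 2.66, and Serp1, which stabilizes membrane proteins at the translocon, at 1.91. Srpr (0.97), Sec24d (0.87), Spcs3 (0.69) and Sec61b (0.44) did not pass, while genes of the same machineries, Srprb (1.31), Sec23b (1.64), Ssr3 (1.06) and Sec61a1 (1.14), did. Of the PERK and ATF4 targets 10 of 12 rose, with a median of 1.96, including Atf4 itself at 1.48, Atf3 at 4.81 and Ddit3, the gene of the death-associated factor CHOP, at 3.77. Ppp1r15a, whose product brings a phosphatase to eIF2α and so opposes PERK, was at 3.70.

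Of 6 mRNAs known to be cut by IRE1α, 5 fell in ER stress and none rose, with a median log2 change of −1.79. Of all genes 11.0% fell there, and this list too was chosen with earlier results of these data known. The 5 were Scara3 (−3.50), Col6a1 (−1.97), Pmp22 (−1.96), Bloc1s1 (−1.62) and Pdgfrb (−1.15), and Hgsnat was at −0.83. In none of the other 5 conditions did any of the 6 pass 2-fold, and their medians there lay between −0.15 and 0.14. Pdgfrb is also a fibroblast marker, and the summed TPM of 8 fibroblast markers was 8721 in ER stress, the lowest of the 7 libraries, against 14059 in control. Among these markers Col3a1 went from 1479 TPM in control to 352 in ER stress, and Fn1 from 2742 to 2600. Whether the lower marker levels bear on the fall of the mRNAs listed was not tested, and their cutting by IRE1α was not measured.

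Of 13 genes whose products bind or adjust the sensors, 7 rose in ER stress, against 8.60% of all genes, and none fell (median 1.76). All of these 7 but Wfs1 were already counted in the target lists above. They included Hspa5 (BiP), the chaperone that holds the sensors inactive, at 3.44. Wfs1, which promotes ATF6α turnover, was at 2.12. Of 6 genes taken as targets of OASIS and BBF2H7, 1 rose, the COPII gene Sec23b (1.64), while Col1a1 and Col1a2, the chains of type I collagen, were at −0.86 and −0.57. In the other 5 conditions none of these 6 passed 2-fold.

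Outside ER stress, at most 1 XBP1 target and at most 1 ATF6 target passed 2-fold in any condition. Without glucose, none of the 12 XBP1 targets passed 2-fold, but their values lay between 0.07 and 0.41 and the median ATF6 target was at 0.47, against −0.02 for all genes. Without glutamine, where Ern1 reached 0.84, the median ATF6 target was at −0.34 and 1 fell, Sdf2l1 (−1.30). There 3 of 12 PERK and ATF4 targets rose (Atf3 2.47, Chac1 1.69 and Nupr1 1.37), in the library in which Eif2ak3 was lowest. In hypoxia 2 of these 12 rose, the lipoprotein receptor gene Vldlr (2.39) and Trib3 (1.18), and the medians of the XBP1 and ATF6 targets were −0.17 and 0.11.

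In oxidative stress, where Ern1 was at 0.74, none of the XBP1 targets passed 2-fold (median −0.17, all genes −0.16). The median ATF6 target was at −0.53 and Sdf2l1 fell (−1.26). Atf3 (4.47), the cystine transporter gene Slc7a11 (2.22) and Chac1 (1.38) rose among the PERK and ATF4 targets. In osmotic stress, where Xbp1 fell, the median XBP1 target was at −0.02 and 1 of 12 rose, Dnajb9 (1.18). The ATF6 targets lay between −0.74 and −0.08, none past 2-fold. The PERK and ATF4 targets divided, with 3 that rose, Ppp1r15a (1.96), Atf3 (1.82) and Nupr1 (1.42), and 4 that fell, from Chac1 (−2.36) through Trib3 and Ddit3 (−1.46) to Sesn2 (−1.24). Atf4 was at 0.73. These 7 of 12 compare with 3.08% of all genes that rose and 8.76% that fell.

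**Figure D4:**
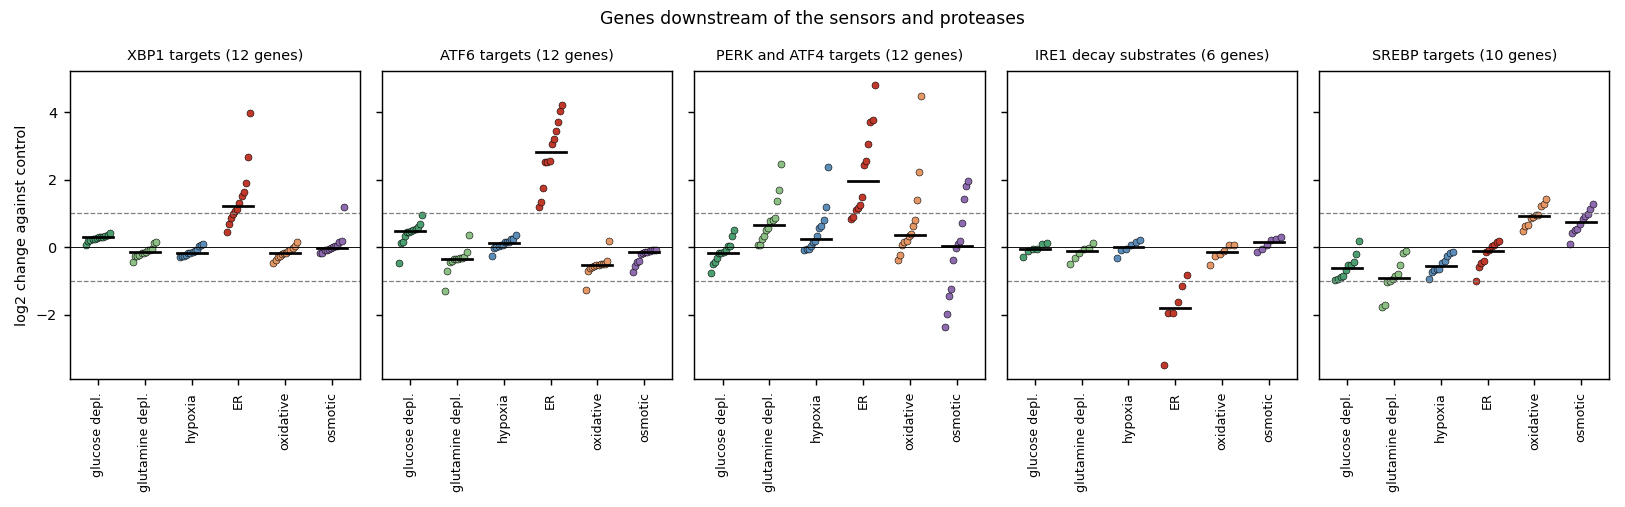
Log2 change of each gene of the target lists in the 6 conditions (1 panel per list, 1 point per gene, bar at the median of the list, dashed lines at 2-fold). In ER stress the medians are 2.81 for ATF6 targets, 1.22 for XBP1 targets, 1.96 for PERK and ATF4 targets and −1.79 for the mRNAs known to be cut by IRE1α. Outside ER stress the medians of these 4 lists lie between −0.53 and 0.67. Those of the SREBP targets run from −0.91 without glutamine to 0.92 in oxidative stress.

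The proteases also release the SREBP factors, whose 10 targets in sterol synthesis and uptake are given here beside the protease mRNAs. In ER stress, where Mbtps2 rose, their median was −0.12 and 1 fell, Idi1, which lay on the threshold. In oxidative stress, where Mbtps2 was at −0.14, inside 2-fold, Insig1 (1.42) and Idi1 (1.20) were among those that rose and the median was 0.92. Whether the protease mRNAs bear on these targets was not tested. The median was 0.75 in osmotic stress, where Sc5d (1.29) and Insig1 (1.12) rose. Without glutamine 3 fell, Insig1 (−1.78), Hmgcs1 (−1.72) and Fdft1 (−1.04), and the median was −0.91. Of the genes of the SREBP factors and of the regulators of their release, Insig2, an ER anchor of the SREBP complex, fell in ER stress (−1.26). Scap and Srebf1 did not pass 2-fold in any condition.

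DNA elements of the response were looked for in RefSeq promoters of GRCm38.p6, on both strands. Each window had 300 bases, of which 250 were upstream of the start. A window was given for 8 of the 10 members, all but Atf6 and Creb3l1. The ER stress element ERSE (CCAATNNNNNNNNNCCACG, which contains a CCAAT box and a CCACG box) was in 0.119% of 32851 promoters, ERSE-II (ATTGGNCCACG) in 0.0365% and the core of the XBP1 element (TGACGTG, which contains the CRE core TGACGT) in 2.01%. None of the 8 windows held any of these, which says only that these letters are not in those windows. Of the 10 ATF6 targets with a window, 5 held ERSE (Calr, Creld2, Hsp90b1, Hspa5 and Pdia6) and 2 held ERSE-II (Dnajb11 and Herpud1).

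Downstream of the Xbp1 window, which ended at chr11:5520690, there was an ERSE. In transcript Xbp1-201 it began at base 248, in the 5′ UTR, 70 bases before the start codon, at chr11:5520906-5520924 on the plus strand. It is shown with the CCAAT and CCACG boxes in capitals, since Xbp1 was the only one of the 10 genes to hold it within the first 300 bases of its transcript, a search added after seeing the data.
Xbp1 ERSE: CCAATcgcggacggCCACG
The same search found it in 7 of 21137 protein-coding transcripts, or 0.0331%. Of the other 6, Hspa5 was at 3.44 in ER stress, Edc4 at −0.25, Ppig at 0.24 and Pygo2 at 0.22, and Kcnh4 and Wt1 were below the expression minimum.

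The upstream windows of Eif2ak3 and Creb3l2, which both rose to just past 2-fold, are shown because they held the most boxes among the members that rose. Capitals mark CCAAT boxes (ATTGG on the other strand) and, in Creb3l2, the CRE core TGACGT as well. Eif2ak3 (gene at chr6:70844515-70905245, plus strand) had 6 CCAAT boxes, from position −237 to −16 counted from the start. At least 6 were in 26 of 32851 promoters (0.0791%). This cutoff was taken from the Eif2ak3 count itself, so the share is not independent support. Creb3l2 (gene at chr6:37327255-37442146, minus strand) had the CRE core at positions −196 to −191. At least 1 CCAAT box was in 37.4% of promoters, a CCACG box in 32.8% and a CRE core in 7.51%. The windows are at chr6:70844265-70844514 (plus strand) and chr6:37442149-37442398 (minus strand).
Eif2ak3 upstream: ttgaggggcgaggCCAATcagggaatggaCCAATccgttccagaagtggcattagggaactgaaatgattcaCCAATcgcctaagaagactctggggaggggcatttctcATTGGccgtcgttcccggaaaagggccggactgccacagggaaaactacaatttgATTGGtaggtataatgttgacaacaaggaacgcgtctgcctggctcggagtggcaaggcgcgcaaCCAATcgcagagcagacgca
Creb3l2 upstream: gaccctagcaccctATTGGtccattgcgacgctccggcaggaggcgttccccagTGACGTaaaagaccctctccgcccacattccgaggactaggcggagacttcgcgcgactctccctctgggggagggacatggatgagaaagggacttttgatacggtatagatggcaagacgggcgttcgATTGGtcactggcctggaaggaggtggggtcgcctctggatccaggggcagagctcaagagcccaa
Of the other windows, Ern1 and Mbtps1 held CCACG boxes alone, Creb3 held 3 of them, Atf6b held 1 CCAAT box, and Mbtps2 and the Xbp1 window held none of the 6 motifs.

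The remaining genes lie at chr11:106394650-106487852 (Ern1, minus strand), chr1:170704674-170867771 (Atf6, minus), chr17:34647146-34655074 (Atf6b, plus), chr8:119508156-119558735 (Mbtps1, minus), chrX:157535371-157598715 (Mbtps2, minus), chr4:43562332-43567060 (Creb3, plus) and chr2:91982328-92024502 (Creb3l1, minus). Creb3 overlaps Tln1, at 119 to 193 TPM, and Gba2, at 5.41 to 7.69 TPM, both on the opposite strand. The libraries kept strand, but Kallisto does not use it at the default settings the study names, so reads from exons shared with these genes cannot be told apart and the Creb3 value is uncertain to that extent. Mbtps2 contains Yy2 on the same strand, which was at 3.57 TPM or less.

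Cell markers were read in all libraries. All 8 fibroblast markers were found, with a summed TPM of 8721 to 16202. Macrophage markers summed to 6.76 to 16.6 TPM, with C1qa at 0 in every library and 3 of 7 below 1 TPM throughout, and endothelial, epithelial, erythroid and muscle markers summed to at most 9.07, 2.46, 0.944 and 0.875 TPM. Neural markers summed to 47.6 TPM in control and 141 in ER stress, owing to the tubulin gene Tubb3, at 127 TPM in ER stress, while Nes was at 20.7 and 13.0. The mitochondrially encoded share of TPM was 5.09% in ER stress, the lowest, and 9.25% in oxidative stress, the highest. The part of these differences in the ER stress values was not tested, although all 6 members that rose were still past 2-fold with mitochondrial genes removed.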

How the data were processed

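MEFs of 1 control and 6 stress cultures were profiled by paired-end stranded mRNA sequencing. The authors aligned the reads with Kallisto (0.43.1 in the submitters' processing notes) at default settings to all cDNA of GRCm38, Ensembl release 90, and the deposited values are gene-level TPM. TPM is scaled to the same total in each library, so depth, counting intervals and detection limits are not known.

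From these, log2(TPM + 1) of each condition minus that of the control was computed for genes averaging 2 TPM or more. A change past 2-fold was an absolute log2 change above 1. No test was run, since each condition has 1 library. Genes named are the 10 members, their family relatives, and from each list (sensor regulators, targets of XBP1, ATF6, PERK and ATF4, OASIS and BBF2H7 and SREBP, the SREBP system, IRE1 decay substrates) those changed most in ER stress or past 2-fold elsewhere. Other list genes given with a value were named after their values were seen. The value of 1 listed gene is not reported here. The members and lists were chosen with earlier results of these data known. The Euclidean distance over the 6 log2 changes gave the genes nearest in pattern.

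Gene positions came from GENCODE M21, and promoters from RefSeq on GRCm38.p6. Motifs were searched as letters on both strands. The members' log2 changes and counts, and after seeing the data 4 target lists in ER stress, were recomputed with 0.1 or 5 TPM added, an expression minimum of 0 or 10 TPM, centring, removal of mitochondrial genes, 1.5-fold and 3-fold, and the median of the other 6 libraries as reference. The comparison with genes of like level and the search from transcript starts were added after seeing the data. The cutoff for counting CCAAT boxes over all promoters was the count seen in Eif2ak3. Tables were handled in pandas 2.3.3 and numpy 2.4.6 under Python 3.11.15, with plots from matplotlib 3.10.9. The log2 change and the 2-fold call were tried on simulated data with planted changes well past 2-fold, and the other steps were not.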

Additional observations from a re-analysis of the deposited data

Results flagged for a closer look

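Xbp1 moved past 2-fold in opposite directions in 2 conditions, with a log2 change of 1.17 after thapsigargin and −1.26 after salt. Each value rests on 1 library, both share the control library, the treatments lasted 10 h and 3 h, and the difference between them was not tested.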

How the results depend on the processing

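The limits are those of 1 library per condition: no spread, no test and a shared control, and depth cannot be read from TPM. No paired analysis was possible because each condition has 1 library. Of 534 single values under the alternatives, 518 kept their side of the threshold, 11 dropped below it and 5 passed it. An expression minimum of 0 or 10 TPM (60 and 54 of these values) left every log2 change as it was, so those values could not move. The 1.5-fold and 3-fold settings (60 values each) moved only the threshold, so no sign could turn there. The sign turned in 16, of which 12 were against the median of the other 6 libraries and 4 under centring. None of the 16 had passed 2-fold, and the largest, Atf6b in osmotic stress, had been at −0.44. The 6 members that rose in ER stress became 3 with a pseudocount of 5 TPM, 2 at 3-fold and 3 against the median of the other 6 libraries, where Atf6, Ern1 and Xbp1 were kept. Of all genes, 5.8%, 3.39% and 9.17% rose in ER stress at these settings. With a minimum of 10 TPM the members that rose were 5, since Ern1, at a mean of 9.89 TPM, was removed, and 7.67% of all genes rose. At 1.5-fold the count became 3 in glutamine depletion (Ern1 higher, Atf6b and Eif2ak3 lower), 1 in oxidative stress (Ern1) and 2 in osmotic stress (Xbp1 and Eif2ak3). At that setting 7.47% of all genes rose and 10.6% fell in glutamine depletion. The shares were 7.27% and 16.2% in oxidative stress, and 6.56% and 19.5% in osmotic stress. At 3-fold the count became 0 in osmotic stress, where 1.65% of all genes rose and 3.37% fell. Across alternatives the log2 change in ER stress lay between 1.97 and 2.22 for Atf6, 1.22 and 1.74 for Ern1 and 1.14 and 1.20 for Xbp1, and that of Xbp1 in osmotic stress between −1.32 and −1.13. Under the same alternatives, run on the lists after seeing the data, the number of genes that rose in ER stress lay between 4 and 11 for XBP1 targets, 10 and 12 for ATF6 targets and 6 and 12 for PERK and ATF4 targets, lowest at 3-fold. Of the mRNAs known to be cut by IRE1α, 4 to 6 fell. Of all genes, 3.39% rose and 4.31% fell in ER stress at 3-fold, and 19% rose and 21.3% fell at 1.5-fold.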

Other observations

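For each of the 6 members that rose in ER stress, the genes nearest in pattern were read from the Euclidean distance between their 6 log2 changes, over 6 conditions that share 1 control. The gene nearest to Atf6 was Atp2a2, at a distance of 0.502, which encodes the SERCA2 calcium pump that thapsigargin blocks. Atp2a2 had a log2 change of 1.89 in ER stress. The next nearest to Atf6 were Nfxl1 (0.555) and Immp2l (0.599). Nearest to Ern1 were Dok5 (0.424), Epg5 (0.469) and Tmem161b (0.501), and nearest to Xbp1 were Tigd2 (0.247), Golph3l (0.254) and Rpusd2 (0.319). Fyn (0.272) was nearest to Creb3l2 and 9130011E15Rik (0.243) to Mbtps2. Eif2ak3 had the most distant neighbor of the 6, Rnf157 at 0.617.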
